A study of Homo sapiens with 4 samples.

Results

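The human globin genes lie in a beta cluster on chromosome 11 (HBB, HBD, HBG1, HBG2 and HBE1) and an alpha cluster on chromosome 16 (HBZ, HBM, HBA2, HBA1 and HBQ1). These 10 genes were taken from a total of 20033 protein-coding genes, and the RAD21 peaks of both clusters were taken from a list of 56853. A peak was included when its summit, the position of highest signal, lay within the span of the gene records of a cluster in the GENCODE version 44 annotation or within 100 kb of either end. This rule gave 6 peaks on chromosome 11, between positions 5125464 and 5605652 of GRCh38, and 5 peaks on chromosome 16, between positions 42728 and 281179. No RAD21 peak lay within the principal (MANE Select) transcript of any of the 10 globin genes. Of the 1134 protein-coding genes with transcripts no longer than the longest of these, 13.2% held a summit. The longer gene records of HBG2 and HBE1 each contained 3 summits. The peaks stood outside the principal transcripts. The stretch without a summit around all 5 transcripts measured 86483 bp at the beta cluster and 63624 bp at the alpha cluster.

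Globin genes encode the protein chains of hemoglobin and are transcribed in erythroid cells, where a remote enhancer group drives each cluster. At the beta cluster this is the locus control region upstream of HBE1, and at the alpha cluster most of the enhancers lie within introns of the neighboring gene NPRL3. Cohesin is a ring-shaped complex that extrudes chromatin loops, and it tends to accumulate where the DNA-binding protein CTCF stops it. CTCF-bound sites on either side of the beta genes, called HS5 upstream and 3′HS1 downstream, are well known from erythroid cells. These elements are not part of the annotation used here, so that peaks were described by their distance to genes and were not assigned to them.

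The data come from ChIP-seq with an antibody to RAD21, a cohesin subunit, in untreated wild-type HCT116 cells, a line derived from a colon carcinoma. Of the 4 libraries of the study, the ChIP libraries of HCT116_RAD21_AID cells (1 clone that carries an mAID degron on RAD21 and expresses OsTIR1), untreated or exposed for 6 h to the auxins indole-3-acetic acid plus alpha-naphthaleneacetic acid at 500 uM each, and the Input of the auxin-treated cells were not analysed here. Neither RNA nor CTCF binding was measured in the file used here, and that the globin genes are silent in these epithelial cells is background and not a result. With 1 library there was no spread between replicates, and no test between conditions was made. The intervals given for fragment counts cover counting error only.

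Sequences around the summits of the border peaks are shown first, since they carry the letters that the following results turn on. Border peaks are those whose summits are nearest to the outermost genes of a cluster. Each sequence is the GRCh38 reference over 101 bases centered on the summit, written 5′ to 3′ on the strand that holds the best match to a 12-letter CTCF consensus, and capitals mark this match.
Beta cluster, HBB side, chr11:5204931-5205031, plus strand: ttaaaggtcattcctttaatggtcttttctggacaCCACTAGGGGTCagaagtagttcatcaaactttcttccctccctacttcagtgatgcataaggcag
Beta cluster, HBE1 side, chr11:5291414-5291514, minus strand: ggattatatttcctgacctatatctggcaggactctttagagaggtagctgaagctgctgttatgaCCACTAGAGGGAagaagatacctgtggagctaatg
Alpha cluster, HBZ side, chr16:117909-118009, plus strand: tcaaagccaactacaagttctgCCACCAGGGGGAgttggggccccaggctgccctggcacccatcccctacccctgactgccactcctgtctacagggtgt
Alpha cluster, HBQ1 side, chr16:181533-181633, minus strand: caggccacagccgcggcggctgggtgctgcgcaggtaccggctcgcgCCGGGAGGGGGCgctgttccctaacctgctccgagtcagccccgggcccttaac

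The beta-globin genes sat between 2 RAD21 peaks of similar height at nearly equal distances from the outermost genes. The peak on the side of HBB, the adult beta chain gene, spanned 5204691 to 5205212, and its summit lay 20483 bp beyond the 3′ end of the gene. At this summit 95 ChIP fragments were counted (exact Poisson 95% interval 76.9 to 116), where the background expected 5.90. The fold enrichment, the ratio of these values after adding 1 to each, was 13.9, and the −log10 of the q-value was 75.4. The peak on the side of HBE1, the embryonic epsilon chain gene, spanned 5291176 to 5291708, and its summit lay 21519 bp upstream of the transcription start of HBE1. It had 86 fragments (68.8 to 106) with the same background, which gave a 12.6-fold enrichment and a −log10 q of 64.7. The counting intervals of both summits overlapped. The HBB-side peak was more enriched than 82.3% of the peaks in the list and the HBE1-side peak than 79.6%. In terms of annotation, the HBB-side summit was intergenic and lay 4299 bp from the start of the olfactory receptor gene OR51V1.

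**Figure D1:**
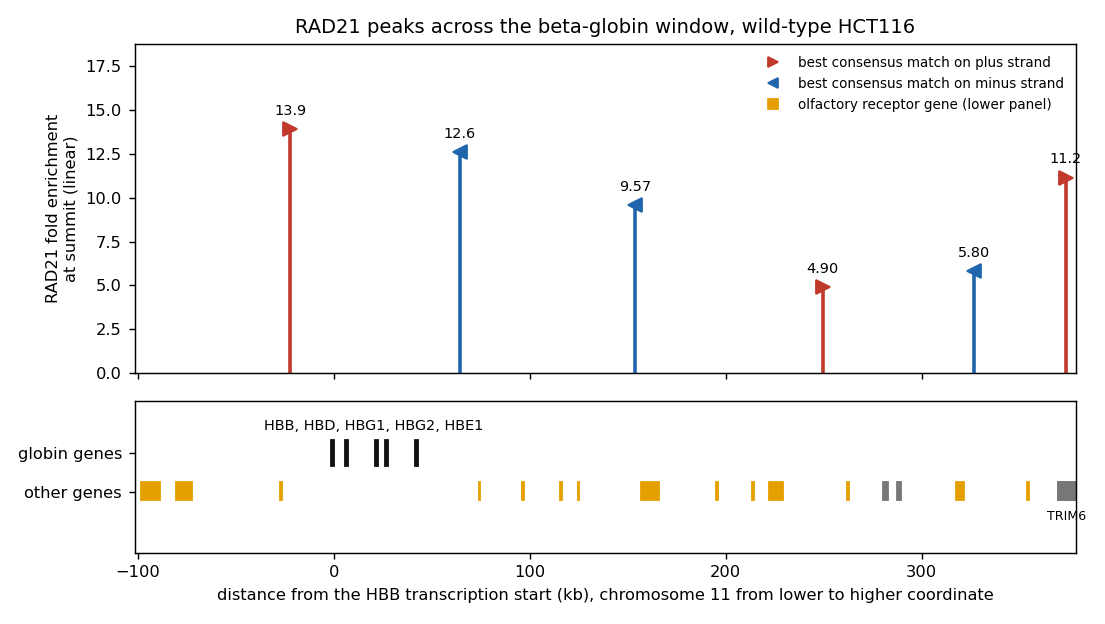
RAD21 peaks of the beta-globin window. The upper panel gives the fold enrichment at each of 6 summits (linear axis) against the distance from the HBB transcription start in kb, with arrowheads for the strand of the best CTCF consensus match, and the lower panel gives the principal transcripts of protein-coding genes with unnamed readthrough genes left out (black globin, orange olfactory receptor, grey other). The globin genes lie between the peaks of 13.9-fold and 12.6-fold enrichment, whose matches are on the plus and the minus strand, and no peak lies over them.

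The stretch between these summits held HBB, HBD (the minor adult delta chain), HBG1 and HBG2 (the fetal gamma chains) and HBE1, which together spanned 44482 bp, 51.4% of the stretch. The distance from each gene to the nearest summit therefore depended on its place in the row. HBG1, in the middle, had its nearest summits 43288 bp away on one side and 41607 bp on the other. HBD lay 27857 bp from the HBB-side summit, and HBG2 lay 36683 bp from the HBE1-side summit. The pseudogene HBBP1 and the noncoding RNA gene BGLT3, which lie between HBD and HBG1, carried no summit either. No summit lay between HBE1 and the border peak upstream of it. Since the elements of the locus control region are not annotated here, which of them lie in this interval and which at the border peak was not determined.

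Farther upstream of the beta cluster, RAD21 peaks lay among olfactory receptor genes, a large family used in odor detection. None of the 14 olfactory receptor genes with a principal transcript in the beta window had a summit within that transcript. Of all 178 such genes on chromosome 11, 2.81% had one. Of the 6 other protein-coding genes of this window, 3 had one, against 55.0% of all protein-coding genes. They were TRIM6, the TRIM6-TRIM34 readthrough and the unnamed readthrough ENSG00000239920, which overlap and share a summit. Within 1 kb of the start, 0 of the 6 had one, against 34.1% of all protein-coding genes. The third highest peak of the window, from 5600225 to 5600705, had its summit in intron 1 of TRIM6, a member of the tripartite motif family, with 76 fragments and an 11.2-fold enrichment. The remaining 3 peaks had fold enrichments of 4.90 to 9.57 and 39 to 71 fragments. Their values were seen before they were singled out here. Their summits lay 110973, 206482 and 283603 bp upstream of HBE1, at positions 5380918, 5476427 and 5553548.

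The alpha-globin genes were also enclosed by RAD21 peaks, but the arrangement was uneven. On the telomeric side, the peak nearest to HBZ, the embryonic zeta chain gene, spanned 117671 to 118163, and its summit lay 34685 bp upstream of HBZ in intron 4 of NPRL3, which encodes a regulator of the mTORC1 pathway. It had 53 fragments (39.7 to 69.3), a 7.83-fold enrichment and a −log10 q of 29.5. On the other side, the peak next to HBQ1, the theta chain gene, spanned 181259 to 181828. Its summit had 116 fragments (95.9 to 139), a 17.0-fold enrichment and a −log10 q of 101.7. The counting intervals of the border summits did not overlap, the HBQ1-side peak being the higher. The HBZ-side peak was more enriched than 64.0% of the peaks in the list and the HBQ1-side peak than 87.0%.

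The HBQ1-side peak was the closest to any globin gene. It began 79 bases beyond the annotated end of HBQ1, and its summit lay 404 bp past this end and 1124 bp past the transcription start. HBA1 and HBA2, which encode identical adult alpha chains, lay 4061 and 7873 bp from the same summit. HBM, the mu gene, lay 14819 bp from it and HBZ 27080 bp. The pseudogenes HBZP1 and HBAP1 carried no summit. The 5 alpha-globin genes spanned 28536 bp, or 44.9% of the stretch without a summit.

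**Figure D2:**
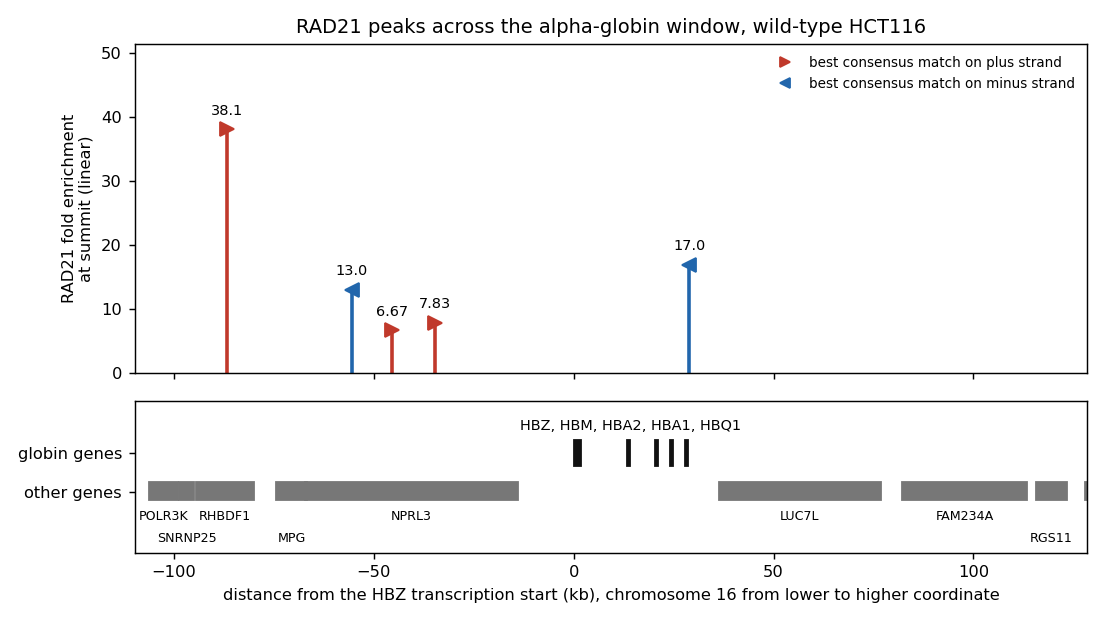
RAD21 peaks of the alpha-globin window. The axes and symbols follow the map of the beta-globin window, with distances in kb from the HBZ transcription start. Of the 5 peaks, 4 lie in RHBDF1 and NPRL3 on the telomeric side and 1 lies just past HBQ1, and no peak is seen over the globin genes or the genes to their right.

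Further peaks of the alpha window lay on the telomeric side alone. The highest, from 65573 to 66205, had its summit in intron 1 of RHBDF1, which encodes an inactive rhomboid protein. It had 262 fragments (231 to 296) and a 38.1-fold enrichment, more than 97.6% of the peaks in the list. NPRL3 held 2 more summits besides the border peak. The peak from 96820 to 97307, in intron 9, had 89 fragments (71.5 to 110) and was enriched 13.0-fold, and the peak from 106864 to 107428, in intron 7, had 45 fragments (32.8 to 60.2) and was enriched 6.67-fold. These 3 summits in NPRL3 were spaced by 10128 and 10778 bp. On the opposite side, the next summit after the HBQ1-side peak was 137176 bp away, outside the window, and of the stretches between neighboring summits on chromosome 16, 95.7% were shorter. This stretch held 5 whole protein-coding transcripts. Of the 9 other protein-coding genes in or overlapping the alpha window, 2 had a summit within the principal transcript, namely RHBDF1 and NPRL3. Among all protein-coding genes this share was 55.0%. Within 1 kb of the transcription start, 0 of the 9 had a summit, against 34.1% of all protein-coding genes.

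**Figure D3:**
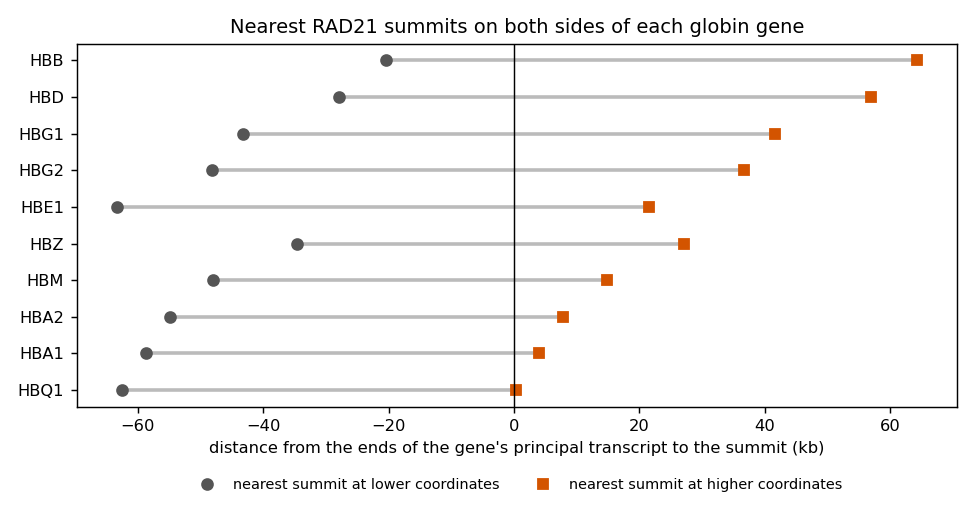
Nearest RAD21 summits of each globin gene. The x axis gives the distance in kb from the ends of the principal transcript to the nearest summit at lower coordinates (circles, negative values) and at higher coordinates (squares). The distances run from 404 bp at HBQ1 to 64393 bp at HBB, and in each cluster all genes share the same pair of summits.

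Whether the genes themselves carry peaks was counted over the principal transcript of each gene (the MANE Select transcript). The count was 0 of 10 globin genes. Among all protein-coding genes, 55.0% had a summit in this transcript, but most of them are far longer. The longest globin transcript, that of HBZ, measured 1860 bp, and of the 1134 protein-coding genes no longer than this, 13.2% had a summit, so that most genes of this size carry none and the count of 0 is no result particular to globin genes. Within 1 kb of the transcription start, 0 of 10 globin genes and 34.1% of all protein-coding genes had a summit. Of the 14 olfactory receptor genes of the beta window, 0 had one either. With a limit of 2 kb, HBQ1 had one. The starts of HBB, HBD, HBG1, HBG2 and HBE1 were 22090, 29502, 41607, 36683 and 21519 bp from the nearest summit, whereas the median over all protein-coding genes was 5429 bp. Between 76.4% (HBE1) and 89.2% (HBG1) of all genes had a nearer one. At the alpha cluster this share ran from 35.1% for HBQ1 to 82.9% for HBZ. Large distances were not particular to globin genes. For olfactory receptor genes of the beta window they ran from 2894 bp (OR51M1) to 41193 bp (OR51Q1). For the other genes of the alpha window they ran from 6774 bp (RHBDF1) to 53238 bp (FAM234A).

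The count depends on which annotation stands for HBG2 and HBE1. Their gene records include long transcripts that start at positions 5505605 and 5505652 and run through the olfactory receptor genes, so that the records are 252418 and 237308 bp long, whereas the principal transcripts measure 1594 and 1601 bp. Each of these records contained the same 3 summits, the HBE1-side border peak and the peaks at 5380918 and 5476427. By gene record, 2 of 10 globin genes thus held a summit, against 60.3% of all protein-coding genes. The long records also set the size of the window. When the span was taken from principal transcripts instead, the beta window held 2 peaks, which were the border peaks, and the alpha window still held 5.

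An absent peak means that no enrichment passed the q-value threshold of 0.05, and not that RAD21 was absent. Among the 17739 peaks with the lowest background of 5.90, the smallest number of fragments was 15, a fold enrichment of 2.32. Where the background is higher, peaks with lower fold enrichments are listed, so that no single limit of detection holds for all positions, and the background at positions without a peak is not given in the list. Some globin genes have near-identical copies, to which reads are hard to assign. An exact copy elsewhere in the assembly was found for 39.9% of the 100-base sequences of HBG1, 39.7% of those of HBG2, 64.7% of those of HBA2, 64.0% of those of HBA1 and 48.2% of those of HBZ. For HBB, HBD, HBE1, HBM and HBQ1 this share was 0%. The 100-base sequence at each of the 11 summits was unique, and 9 summits had the lowest background, the highest being 1.28 times as large.

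**Figure D4:**
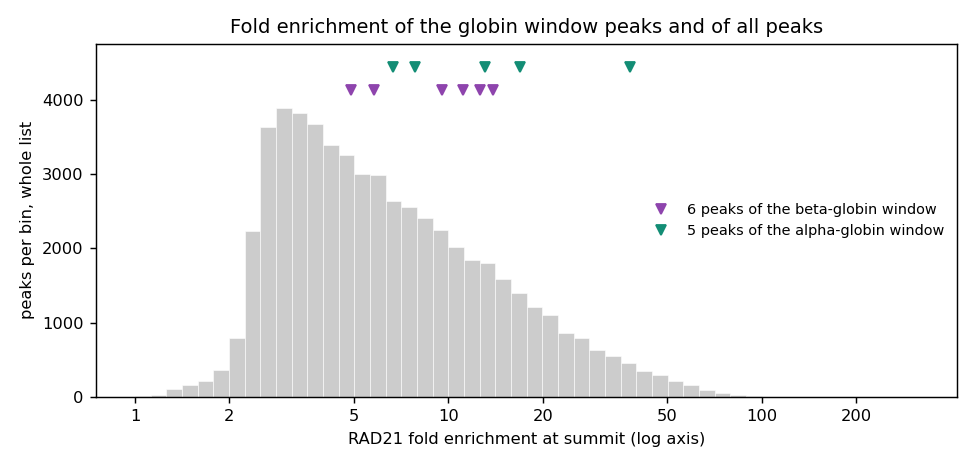
Fold enrichment of the globin window peaks beside that of all 56853 peaks. Bars give the number of peaks per bin of fold enrichment (log x axis), and triangles mark the 6 peaks of the beta window and the 5 peaks of the alpha window. The triangles run from 4.90 to 38.1, and the median of all peaks is 5.58.

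In the beta window, 4 of 6 peaks exceeded the median fold enrichment of chromosome 11 (6.09), and in the alpha window 5 of 5 exceeded that of chromosome 16 (4.83). The window medians were 10.4 and 13.0. Peaks were less dense than on the chromosome as a whole in either window. The beta window had 12.5 peaks per Mb, against 20.1 on chromosome 11, and the alpha window 21.0, against 27.0 on chromosome 16. Over all chromosomes the density was 19.2 peaks per Mb, above that of the beta window and below that of the alpha window. With 6 and 5 peaks, these densities are descriptions and were not tested. The GC content was 39.0% in the beta window and 53.3% in the alpha window.

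**Figure D5:**
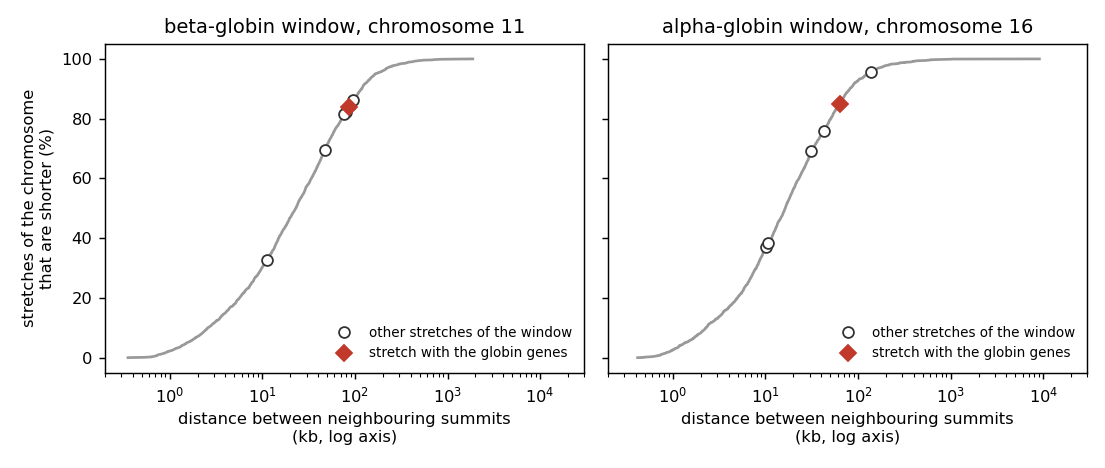
Distances between neighboring RAD21 summits. The grey lines give, for chromosomes 11 and 16, the share of stretches (y axis, %) shorter than a given distance (x axis, kb, log scale), the diamonds mark the stretches that hold the globin genes, and the circles mark the other stretches that lie in or reach into the windows. The diamonds are at 86.5 kb and 63.6 kb, where 83.9% and 85.1% of stretches are shorter.

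The stretches around the globin genes were long but not extreme for their chromosomes. On chromosome 11, 83.9% of 2708 stretches between neighboring summits were shorter than that of the beta cluster, and the median was 22869 bp. On chromosome 16, 85.1% of 2205 were shorter than that of the alpha cluster, with a median of 16305 bp. In the beta window the stretches on either side of the globin stretch measured 80734 and 89454 bp. Farther upstream of HBE1 they measured 95509, 77121 and 46928 bp, and the one that reached out of the window 11305 bp, so that the spacing was similar around the globin genes and closer at the far end. The globin stretches were rich in genes, which follows from the choice of a gene cluster, but they were not alone in this. A stretch that held at least 5 whole protein-coding transcripts was found in 113 of 56373 cases (0.2%). The beta stretch held 6, including a transcript that joins HBG1 and HBG2, and the alpha stretch 5. The 137176 bp stretch beyond the HBQ1-side peak, which has no globin gene, also held 5. In the beta window the stretches of 89454, 95509 and 77121 bp held 4 each. Those of 80734, 46928 and 11305 bp held 3, 1 and 0, and the remaining alpha-window stretches 0 to 2. The share of 0.2% covers stretches of all lengths and is not matched for length.

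The CTCF consensus was looked up on either strand up to 50 bp from the summits. An exact match was present at 2 of the 11 window peaks (18.2%, Wilson 95% interval 5.14 to 47.7%), and at 11.4% of all peaks. With up to 1 mismatch, a match was present at 10 of 11 (90.9%, 62.3 to 98.4%), and at 38.5% of all peaks. Both intervals treat the 11 peaks as independent draws, although they are all the peaks of the chosen windows. The difference from all peaks was not tested. Windows of the same size placed 5 kb to either side of all summits contained such a match in 0.762% of cases. Stronger peaks contain the consensus more often. Among peaks with a fold enrichment at least as high as the lowest in these windows, a limit set after the values were seen, the share was 54.9%. This set starts at 4.90, whereas the window medians were 10.4 and 13.0, so the shares are not matched for peak height. A match describes letters of the reference and does not show that CTCF is bound.

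At the beta cluster, 6 of 6 peaks had a match with 1 mismatch and 0 had an exact one. The match of the HBB-side border peak, CCACTAGGGGTC, differed from the consensus at position 11 of 12, and that of the HBE1-side border peak, CCACTAGAGGGA, at position 12. At the alpha cluster, the exact matches were both in introns of NPRL3. They were CCACCAGGGGGC on the minus strand, from 97063 to 97074, and CCACTAGGTGGC on the plus strand, from 107206 to 107217. The HBZ-side border peak had CCACCAGGGGGA, the same 12 letters as the beta-window peak at 5380918, and this sequence was the best match at 127 peaks of the whole list. The highest peak of the window, in RHBDF1, had CCACCAGGTGAC. At the HBQ1-side peak the best match, CCGGGAGGGGGC, had 2 mismatches, although this peak was the second highest of the window. Of the 8 window peaks with exactly 1 mismatch, 6 had it at position 11 or 12, positions that were picked after these values were seen. In the whole list this was so for 34.7% of 15372 peaks with 1 mismatch.

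CTCF sites that face each other, with the consensus on the plus strand on the left and on the minus strand on the right, are known as convergent and are typical of loop anchors. The border peaks of the beta cluster had this arrangement, each with 1 mismatch. At the alpha cluster the HBZ-side match was on the plus strand and the HBQ1-side match on the minus strand, but the latter had 2 mismatches. Among 9344 pairs of neighboring peaks that both had a match with up to 1 mismatch, 22.2% were convergent, close to the share of each other orientation (25.2 to 26.4%). The orientation of 1 pair is therefore a description of this locus. No loops were measured in these data.

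Exact consensus sequences were also counted over the whole windows, within and outside peaks. The beta window, which is 480189 bp long, contained 0. The alpha window, which is 238452 bp long, contained 3, of which 2 were those of the NPRL3 peaks. The third, from 188857 to 188868 on the minus strand, lay outside peaks, 7274 bp from the HBQ1-side summit. Of the 11054 exact sites on chromosomes 1 to 22, X and Y, 64.8% lay inside a peak.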

How the data were processed

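RAD21 ChIP-seq peaks of 1 library (untreated wild-type HCT116 cells) were analysed. Per the study's methods and processing notes, the authors used Trimmomatic 0.39 to trim the paired reads, Bowtie2 2.5.3 for alignment to GRCh38 and Picard for the removal of duplicates, and MACS2 2.2.9.1 then called peaks against Input at a q-value of 0.05, without pooling. Which Input served as control is not given in the sources used here, nor is a mapping quality filter for peak calling, so that reads of duplicated genes may have been placed on either copy. The deposited list gives the fold enrichment at the summit (the ratio of ChIP fragments to local background, each with 1 added), the −log10 of the p-value, the −log10 of the q-value, and a whole-number score derived from the q-value, which was left aside. No read totals are given.

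The fragments and the background at each summit were computed from the fold enrichment and the Poisson p-value. They came out whole, within 0.05, for all but 14 of 56853 peaks and for each of the 11 peaks described. The recovery and the consensus search were tested on simulated data. Principal transcripts are MANE Select, otherwise Ensembl canonical, of GENCODE version 44. The consensus was the 12-letter CTCF core, and positions in it are counted from its 5′ end. Copies of 100-base sequences were counted over the main assembly, in either orientation.

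The members, lists and tests were chosen with earlier results of these data known. Named were the 10 globin genes, their pseudogenes and noncoding RNA, other globins, an erythroid list and window genes that hold a summit or the nearest start. Peaks given with values were the border peaks, the 3 highest of each window and those with an exact consensus. RefSeq promoter sequences (GRCh38.p14) matched HBD and HBM and were not used further. No test was made, since each condition had 1 library. Alternatives were stricter q-values, a limit on the background, other window sizes and spans, overlap instead of summits, a 2 kb promoter limit, any annotated start, 1 mismatch, and 100 bp around summits. The scripts ran in Python 3.11.15 with scipy 1.17.1, numpy 2.4.6, numba 0.67.0, pandas 2.3.3, pysam 0.24.0, samtools 1.23.1 and matplotlib 3.10.9.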

Additional observations from a re-analysis of the deposited data

How the results depend on the processing

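No paired analysis was possible because the peaks of 1 library were described and groups were not compared. At q-values of 0.01, 0.001 and 1e-05 and with a background below 2 times the lowest one, the counts of peaks, of globin genes with a peak and of exact consensus matches and the lengths of both stretches were the same, since the weakest of the 11 peaks had a −log10 q of 14.9. All 11 peaks had the same rank in their window by −log10 q as by fold enrichment. The counts that changed were those that rest on annotation, window size or sequence limits, by the construction of these alternatives. The beta window held 2 peaks instead of 6 when its span came from principal transcripts. With an extension of 50 kb, the beta window held 5 peaks and the alpha window 4 instead of 5. With an extension of 200 kb, which the chromosome end cut short on the telomeric side of the alpha window, both windows held 9. By gene record, 2 instead of 0 globin genes held a summit (HBG2 and HBE1), and with a promoter limit of 2 kb, 1 instead of 0 had one at the start (HBQ1). With 1 mismatch allowed, 10 instead of 2 peaks had a consensus match. Backgrounds at positions without peaks, and so the limit of detection at each globin gene, are not given by the list.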

Other observations

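Outside both clusters, the other globin genes differed in whether they held RAD21 summits. CYGB, which encodes cytoglobin, held 2 summits with fold enrichments of at most 2.70, whereas MB (myoglobin) and NGB (neuroglobin) held 0. Of 10 genes with erythroid roles, 2 had a summit within the principal transcript, against 55.0% of all protein-coding genes. ZFPM1, the GATA1 cofactor FOG1, held 7 over 83752 bp, the highest with a fold enrichment of 67.7, and NFE2, a transcription factor subunit, held 1 with 15.8. AHSP, which encodes the chaperone of alpha-globin chains, and ALAS2, KLF1, GATA1, TAL1, GFI1B, LDB1 and LMO2 held 0. Within 1 kb of the transcription start, 1 of the 10 had a summit, against 34.1% of all protein-coding genes. This was GFI1B, at a distance of 858 bp. The genes differ in length, and these counts were not tested.

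The first summit below the beta window lay 1217 bp outside its limit, at 5124247, with a fold enrichment of 15.9, higher than any peak inside.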
